A study of Homo sapiens with 3 samples.

Results

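The peaks described here are the strong H3K36me3 peaks that were called in LNCaP cells after dihydrotestosterone (DHT) and had no called counterpart in untreated cells. Members were chosen by the deposited score and by the distance to untreated peaks. A DHT peak was a member if its deposited score was at least 150, it lay on chromosomes 1 to 22, X or Y, and no untreated peak lay within 1000 bp of either edge. This held for 2148 peaks, out of 24805 DHT peaks of that score, 131798 DHT peaks in all and 249362 peaks of both lists. Because these values selected the members, both are given below as descriptions.

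The series maps H3K36me3 by chromatin immunoprecipitation sequencing (ChIP-seq) in LNCaP, a prostate cancer cell line that responds to androgen, before and after the hormone. One library came from cells labelled as untreated, and 1 from cells given 100 nM DHT for 4 h in red-free RPMI, both kept beforehand in RPMI with 10% serum. The untreated label names no change of medium, so hormone and medium cannot be told apart. An input library was also made but not analysed here. With a single library for either condition, no test over samples could be made. All intervals are at the 95% level and cover counting error only, treating peaks as independent although neighbours are not. The number of reads behind each list is not given in the sources used here.

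H3K36me3 is histone H3 carrying 3 methyl groups at lysine 36. The enzyme SETD2, which travels with elongating RNA polymerase II, lays it down over the bodies of transcribed genes, so the mark forms broad domains rather than points. DHT binds the androgen receptor, a transcription factor that raises or lowers the transcription of its target genes in prostate cells. A peak list reports where a caller's threshold was passed. The lowest score in the untreated list was 50, so a missing untreated peak means that no region there reached that score, not that the mark was absent.

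Strong DHT peaks usually had an untreated counterpart. Of all DHT peaks, 36.7% had no untreated peak within 1000 bp, and of those scoring at least 150 the share was 8.66% (Wilson interval 8.32% to 9.02%). The remaining 22657 strong DHT peaks, called the other strong peaks below, comprised 21293 overlapped by an untreated peak and 1364 with one within 1000 bp. The share without a counterpart was lower at higher scores. It was 52.6% at scores of 50 to 75, 28.03% at 100 to 150, 14.1% at 150 to 200 and 5.74% at 200 to 300. Only 53 of 3917 peaks scoring 300 to 500 and 2 of 910 scoring 500 or more lacked an untreated peak. The strong DHT-only peaks were therefore mostly near the score limit. Their median score was 175, against 212 for the other strong peaks, and 1596 of them scored below 200.

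**Figure D1:**
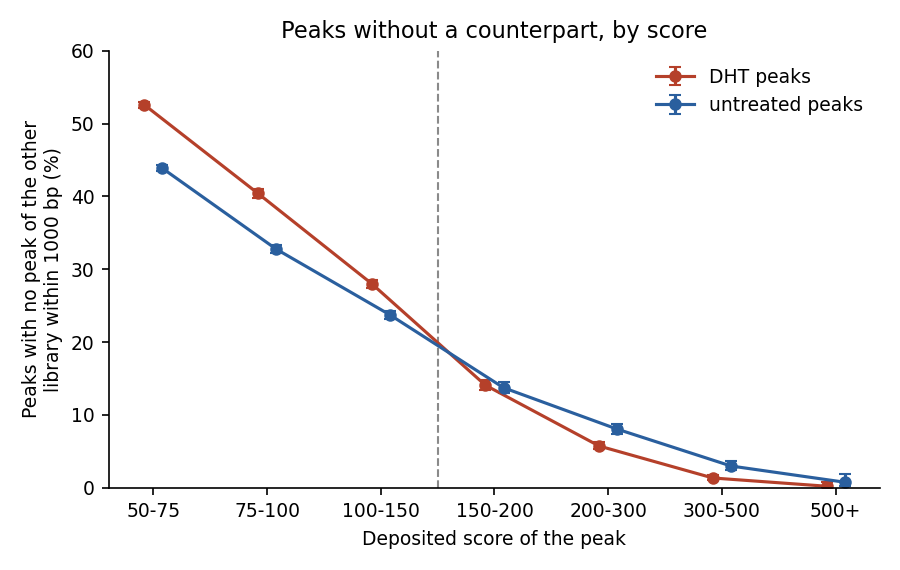
Percentage of peaks with no peak of the other library within 1000 bp (y axis) by deposited score (x axis, classes), for DHT and untreated peaks. Points are shares with 95% Wilson intervals and the dashed line marks the score limit of 150. The DHT share is above the untreated one below the limit, 52.6% against 43.9% in the lowest class, and below it from 200 up.

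The untreated list held a similar class. Of 18541 untreated peaks scoring at least 150, 1842 had no DHT peak within 1000 bp. This was 9.93% (9.51% to 10.4%), and 32.3% of untreated peaks of any score lacked a DHT peak. The DHT share was 0.872 times the untreated share (0.821 to 0.925), as far as both score scales match, which the files do not state. So a strong peak without a counterpart was slightly less frequent among DHT peaks, although the DHT library had more such peaks in number. At scores of 150 to 200 the shares were 14.1% and 13.7%, with overlapping intervals. At 200 to 300 they were 5.74% (5.27% to 6.25%) after DHT and 8.05% (7.41% to 8.74%) in untreated cells.

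Both limits cut through dense ranges of values. The members just inside the score limit scored 150, 150.01 and 150.02, and the peaks just outside scored 149.97 to 149.98. Of the members, 556 scored below 160. At the distance limit, members lay 1003, 1004 and 1005 bp from an untreated peak, and the nearest peaks outside lay 999 or 1000 bp away. In all, 363 members had an untreated peak within 1500 bp.

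The 10 highest-scoring members scored 392 to 572 and lay 1116 to 16231 bp from an untreated peak. None was within 5 Mb of a chromosome end, and 9 had untreated peaks within 10 kb. The first, 1703 bp wide with a score of 572, lay at chr16:72821041-72822743 (hg19, as all positions here). No untreated peak lay nearer than 2563 bp, where one of 199 bp scored 78.7. Further to the right both libraries had peaks that matched closely, such as the DHT peak at chr16:72830626-72831862, scoring 201, and the untreated peak at chr16:72830601-72831878, scoring 191. The strongest member thus stood beside a stretch marked in both libraries.

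The second, at chr15:91460404-91462091, scored 519, and its nearest untreated peak was 9171 bp away. The third, at chr3:49147053-49150402, was 3350 bp wide and scored 483. It lay 6928 bp from a strong untreated peak of 5019 bp that scored 449. The fourth was the only one of the 10 with no untreated peak within 10 kb. It lay at chr15:25315636-25318394 and scored 472, and the nearest untreated peak, 16231 bp away, scored 52.4. The fifth, at chr12:112621674-112623345, scored 451.

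The remaining 5 scored 392 to 442. They lay at chr15:69973508-69973808, chr11:113953286-113954554, chr6:41068447-41069063, chr16:67708555-67709970 and chr3:167747445-167747820. The chromosome 6 peak had no other DHT peak within 10 kb on either side, while untreated peaks covered 1436 bp there. Among these 10, chromosome 15 appeared 3 times and chromosomes 3 and 16 each appeared 2 times.

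The members were narrower than the other strong peaks. Their median width was 396.5 bp (384 to 408) against 525 bp (520 to 532), a ratio of 0.755. Width goes with score, so both were compared within score classes. It also goes with the chance of lying near an untreated peak, so the distance rule bears on this comparison. At scores of 150 to 200 the medians were 383 bp (367 to 396) and 448 bp (441 to 455), and at 200 to 300 they were 455 bp (407 to 509) and 540.0 bp (530.0 to 553). In both classes the intervals did not overlap. At 300 to 500 the 53 members had a higher median, 992 bp (527 to 1315) against 700.0 bp (679 to 718), with overlapping intervals.

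Very narrow peaks made up part of the difference. Of the members, 437, or 20.3% (18.7% to 22.1%), were under 200 bp wide, against 4.58% (4.32% to 4.86%) of the other strong peaks. Member widths had a pair of maxima. There were 181 at 150 to 175 bp, 52 at 225 to 250 bp and 100 at 350 to 375 bp. The other strong peaks had no such dip, with 350, 580 and 1054 in the same width classes. Without peaks under 200 bp the ratio of medians was 0.867 (0.838 to 0.902), so members were narrower without them too.

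Seen by width, 29.6% (27.4% to 32.0%) of strong DHT peaks under 200 bp lacked an untreated peak. The share was 10.6% at 200 to 300 bp, 6.23% at 500 to 1000 bp and 5.50% at 2000 to 4000 bp. The excess among the narrowest peaks was present at scores of 150 to 200, with 37.2% (34.1% to 40.3%) of peaks under 200 bp and 10.3% (9.32% to 11.4%) at 500 to 1000 bp. At 200 to 300 the corresponding shares were 19.2% and 4.89%. At 300 to 500 only 3 of 96 such narrow peaks lacked an untreated peak. At the other extreme, 11 of 40 peaks of at least 4000 bp scoring 150 to 200 had no untreated peak, which is 27.5% (16.1% to 42.8%). At scores of 200 to 300 this held for 4 of 92 such wide peaks and at 300 to 500 for 3 of 68, or 4.35% and 4.41%.

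**Figure D2:**
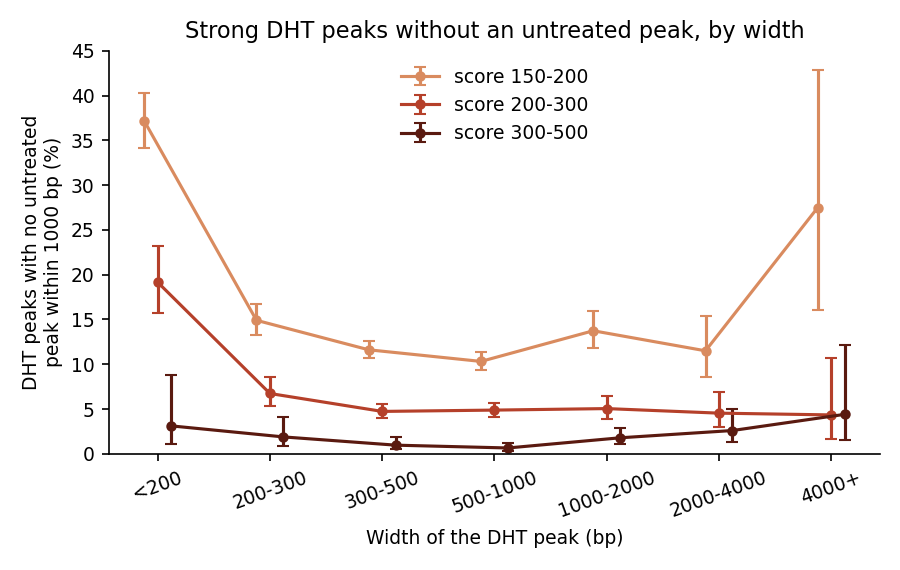
Percentage of DHT peaks with no untreated peak within 1000 bp (y axis) by peak width (x axis, classes in bp), with 1 line for each score class. Points are shares with 95% Wilson intervals. Peaks under 200 bp stand above those of 200 to 300 bp at scores of 150 to 200, 37.2% against 14.9%, and at 200 to 300, 19.2% against 6.74%.

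Many of the narrow members carried exactly the same score. The value 152 was shared by 100 members, 164.2 by 71 and 176.63 by 43, with median widths of 161 to 167 bp. These 3 scores, chosen as the most frequent among members, made up 9.96% (8.77% to 11.3%) of the members and 1.11% (0.984% to 1.26%) of the other strong peaks. Choosing them among members favours the members in this comparison. Of the 214 members at these scores, 182 were under 200 bp wide, and so were 170 of the 252 other strong peaks there. Narrow peaks at these scores were thus not particular to the members. What sets these repeated values was not tested.

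The 10 widest members were 4979 to 6735 bp wide and scored 154 to 288, so none was among the highest scores. The widest lay at chr8:145006286-145013020 and scored 154, just over the limit. Its nearest untreated peak, 1705 bp wide, was 4638 bp to the left, where a DHT peak also lay. The next, at chr3:49715854-49722513, was 6660 bp wide and scored 288. Within 10 kb of it no other peak of either library was called, and the nearest untreated peak, 11756 bp away, scored 55.9.

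The third was at chr17:17696280-17702931 and the fourth at chr16:67910891-67917321. The others lay at chr19:10246076-10251721, chr19:18374030-18379095, chr22:46674457-46679738, chr5:1483088-1488316, chr6:44269430-44274466 and chr20:60704361-60709339. Of the 10, 4 lay within 5 Mb of a chromosome end and 9 had an untreated peak within 10 kb. Within 10 kb of the chromosome 22 peak, DHT peaks covered 16013 bp, the 5282 bp of the member itself included, and untreated peaks 8043 bp. Wide peaks were few among members and other strong peaks alike. At least 2000 bp wide were 85 members. Of the members 3.12% were 2000 to 4000 bp wide and 0.838% were wider, against 5.08% and 0.847% of the other strong peaks.

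Most members lay close to untreated peaks. The median distance to the nearest was 3342 bp (3163 to 3519), with quartiles of 1792 and 7110.0 bp. It was 1000 to 2000 bp for 651 members, 2000 to 5000 bp for 736, 5000 to 10000 bp for 396, 10000 to 50000 bp for 301 and farther for 64. Untreated peaks lay within 10 kb on both sides of 1093 members, or 50.9%, on 1 side of 690 and on neither side of 365. Most members thus had untreated peaks close by on at least 1 side, and the nearest untreated peak was on the left in 49.2% (47.1% to 51.3%). Strong untreated-only peaks lay a median of 2909.5 bp from a DHT peak, so such closeness was not particular to the members.

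The untreated peak nearest to a member resembled the list it came from in score but was wider. There were 2112 such peaks, with a median score of 82.1 against 81.2 for every untreated peak. Their median width was 411 against 374 bp, and the upper quartile of width was 764 against 593 bp. A DHT peak overlapped 49.5% (47.3% to 51.6%) of them, against 52.3% of every untreated peak. Only 44 of them, 2.08% (1.56% to 2.79%), were themselves strong untreated peaks without a DHT counterpart, against 1.57% of every untreated peak. A strong untreated-only peak lay within 10 kb of 4.19% (3.42% to 5.12%) of the members and of 5.38% (5.09% to 5.68%) of the other strong peaks. Strong untreated-only peaks were few, 1842 in all, so low shares near members are not particular to the members.

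The untreated gaps that held members were long. The 2081 gaps had a median length of 14260 bp, against 4826 bp for every gap between neighbouring untreated peaks. A longer gap has more room for a DHT peak more than 1000 bp from its edges, so this follows in part from the rule. DHT peaks of any score covered a median of 5.40% of these gaps. One gap held 4 members, 1 held 3, 59 held 2 and the rest 1.

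Distance went with width. The share of members under 200 bp was 14.4% at 1000 to 2000 bp and at 2000 to 5000 bp, 24.0% at 5000 to 10000 bp, 35.9% at 10000 to 50000 bp and 53.1% farther out. Median width was 396 bp in the nearest class, then 420.5, 418 and 337 bp, and 187 bp in the farthest, so it was lower only beyond 10000 bp. Median score was 176 in the nearest class and 167 in the farthest. The distant members were also far from other DHT peaks, with a median of 40027 bp to the nearest in the farthest class and 1661 bp in the nearest.

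**Figure D3:**
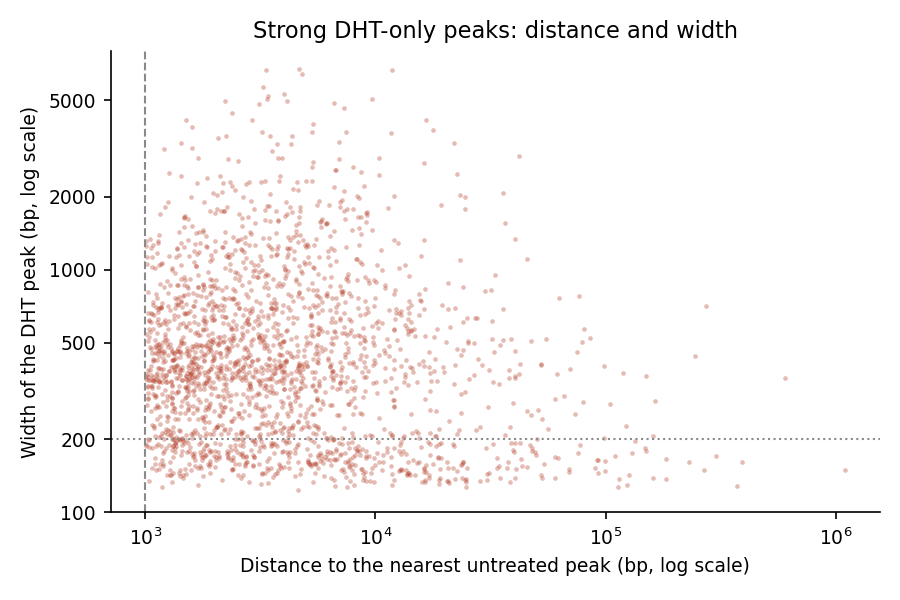
Each point is 1 of the 2148 strong DHT-only peaks, by distance to the nearest untreated peak (x axis, bp, log scale) and width (y axis, bp, log scale). The dashed line is the distance limit of 1000 bp and the dotted line marks 200 bp. Points under the dotted line, 437 in all, reach the largest distances, where wide peaks are missing. The dip in member widths lies above that line, at 225 to 250 bp.

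The 10 members farthest from any untreated peak lay 183286 to 1094269 bp away. Of these, 7 were under 200 bp wide, and 5 carried 1 of the 3 scores most frequent among members. Scores outside those 3 also recurred, such as 269 and 228.34, each carried by 1 of these 10 and by other members. The farthest was a 149 bp peak at chr22:16159012-16159160 that scored 269. The nearest other DHT peak was 104986 bp away. The next was at chr4:118001849-118002205, 602861 bp from an untreated peak and 481170 bp from another DHT peak.

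The others lay at chr9:84725731-84725892, chrY:13863101-13863228, chr2:2612503-2612673, chr1:30324706-30325417, chr4:145543476-145543624, chr3:22749028-22749470, chr5:121592895-121593055 and chr12:7548874-7549039. The chromosome 1 peak, 712 bp wide, was the widest of the 10. None of them had an untreated peak within 10 kb, and only the chromosome 9 peak had another DHT peak there. Except for that peak they stood alone in both libraries at this distance.

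Summed over the members, coverage beyond 5 kb, at distances the rule did not use, was close in both libraries. From 5 to 20 kb, DHT peaks covered 8.34% and untreated peaks 8.20% of the sequence, a ratio of 1.02 (5.38 and 5.28 Mb in all). Single members varied: DHT coverage was higher around 980, untreated coverage around 1040, and they were equal around 128, most of which had none of either. From 20 to 100 kb coverage was 5.81% and 5.67%, and from 100 kb to 1 Mb it was 3.69% and 3.53%. Around the other strong peaks the ratio was 0.974 from 5 to 20 kb and 1.046 beyond 100 kb, where it was 1.044 around the members. Beyond 5 kb the summed coverage of the libraries thus differed little around the members.

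From 1 to 5 kb the untreated list was ahead. It covered 8.88% against 7.17% for DHT peaks around the members, a ratio of 0.808, and 8.67% against 7.46% around the other strong peaks, a ratio of 0.861. Around strong untreated peaks the order was turned, with DHT over untreated at 1.15 for those without a DHT peak and 1.08 for the others. In these 4 classes of strong peaks, the list that held the peak covered less sequence at this distance than the other list. Over 1 to 20 kb the ratio was 0.971 (0.951 to 0.991). This direction depended on the limits: it was 1.25 when members had to be over 5000 bp from an untreated peak, which empties the near flank of untreated peaks.

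**Figure D4:**
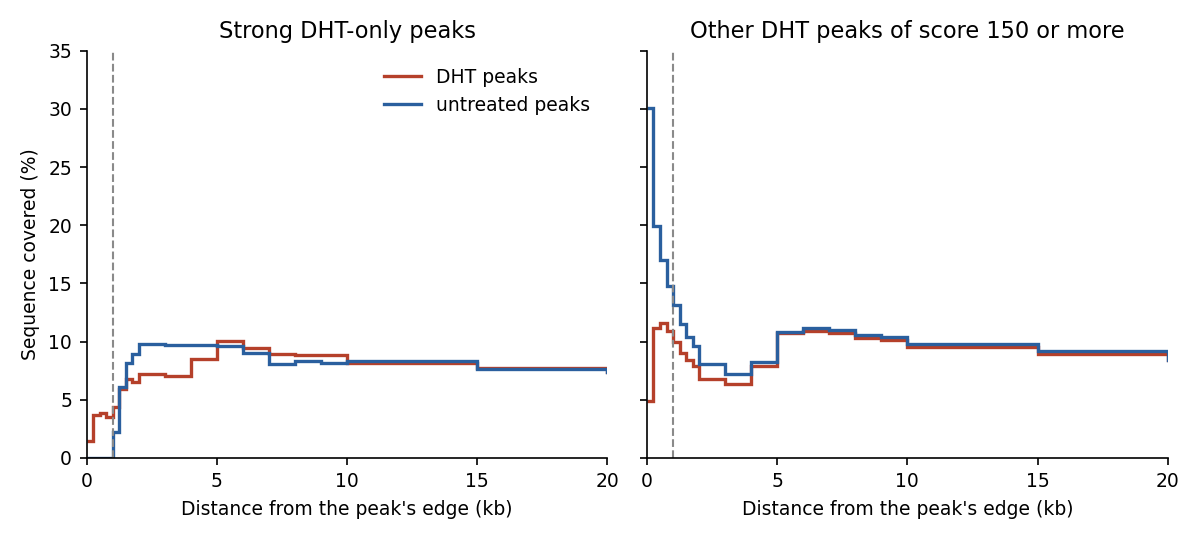
Percentage of sequence covered by DHT and by untreated peaks (y axis) against distance from the edge of the peak (x axis, kb), averaged over both sides, around strong DHT-only peaks (left) and the other strong DHT peaks (right). The dashed line is at 1 kb. Untreated coverage is 0 inside it on the left by the rule, reaches 9.77% at 2 to 3 kb, and runs close to the DHT line beyond 5 kb.

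The members had strong DHT neighbours less often than the other strong peaks. Another strong DHT peak lay within 10 kb of 43.8% (41.7% to 45.9%) of them and of 56.7% (56.02% to 57.3%) of the other strong peaks, a ratio of 0.773 (0.736 to 0.812). The difference was clearest at scores of 150 to 200, with 41.2% (38.8% to 43.6%) against 55.8% (54.8% to 56.8%). At 200 to 300 it was 50.9% (46.5% to 55.3%) against 57.3% (56.2% to 58.4%), and at 300 to 500 the intervals overlapped. Counting DHT peaks of any score, 85.6% of members had one within 10 kb, against 95.4% of the other strong peaks. A peak with more DHT neighbours lies in a more marked stretch, where an untreated peak is also more likely, so the distance rule bears on this comparison.

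Few members had another member close by. Members made up only 8.66% of the strong DHT peaks, which by itself keeps this share low. Any other strong DHT peak lay within 10 kb of 43.8% of them. Joined at 10 kb, they formed 2017 single peaks, 61 pairs and 3 runs of 3, so 131 members, or 6.10%, had another within 10 kb. For strong untreated-only peaks the share was 7.55% (6.43% to 8.84%) against 5.16% to 7.19% for the members. The median distance between a member and the next was 220208 bp.

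Of the runs of 3, the one with the most member sequence, 4011 bp, lay at chr15:90617253-90629052. Its members, 488, 1815 and 1708 bp wide, scored 384, 285 and 188, and no untreated peak was called over its 11800 bp. On either side both libraries had peaks. On the left, the DHT peak at chr15:90610569-90612643 scored 463 and the untreated peak at chr15:90611055-90612260 scored 190.01. On the right, the untreated peak at chr15:90631051-90632137 scored 164 and the DHT peak at chr15:90630727-90632082 scored 89.2. The run thus lay between peaks that both libraries shared.

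The other runs of 3 had untreated peaks between their members. On chr1:53736547-53755060, members scoring 235, 153 and 208 stood with 689 bp of untreated peaks. On chr6:7879838-7889482, members scoring 243, 183 and 160.2 stood with 2364 bp. The pairs with the most sequence had none. One, at chr8:145006286-145021637, held the widest member and another of 680 bp. The next, at chr19:18367556-18379095, had peaks of 1851 and 5066 bp scoring 221 and 225, and untreated peaks were 19313 and 9624 bp away.

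**Figure D5:**
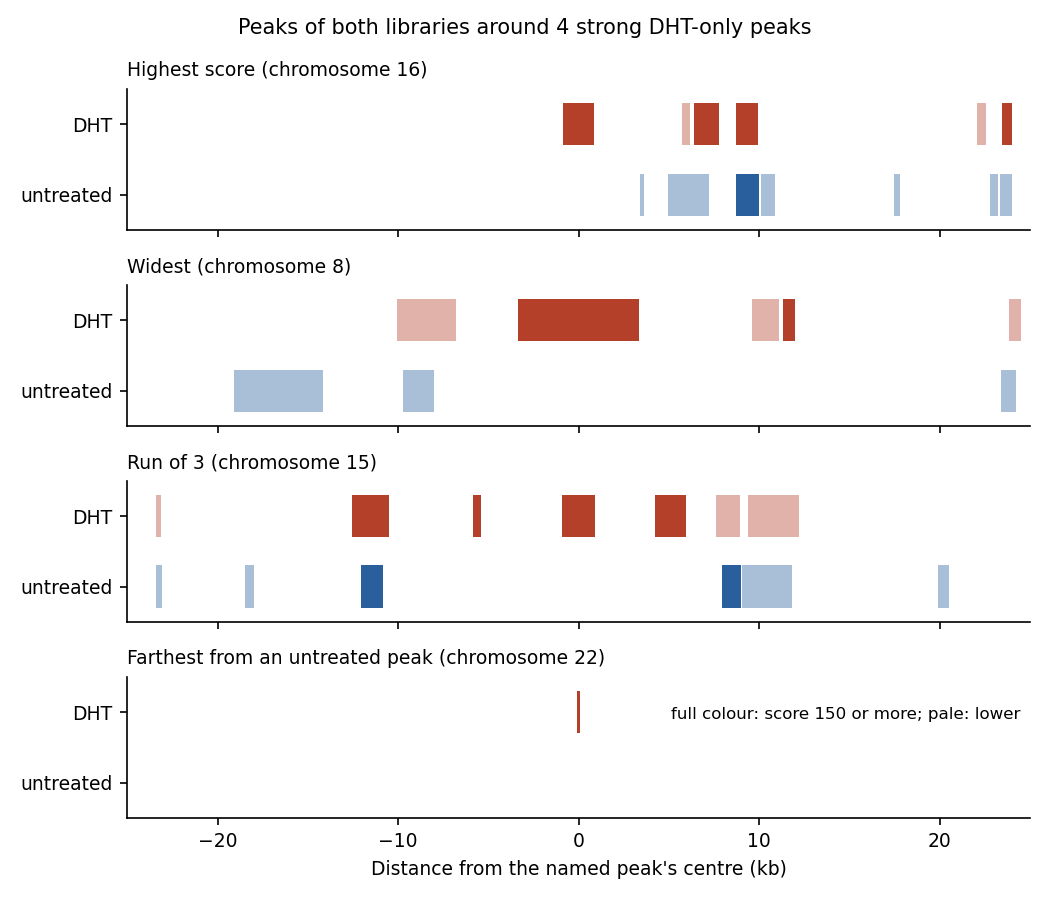
Peaks of both libraries within 25 kb of the highest-scoring member, the widest, the middle peak of the run of 3 on chromosome 15 and the member farthest from an untreated peak (x axis, kb from the peak's centre). Bars are peaks to scale, in full colour at a score of 150 or more and pale below. In the maps of the highest-scoring member and of the run, peaks of both libraries resume beside the member, while in the last no other peak was called.

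When peaks of either library were merged across gaps of up to 5 kb, the members fell into 2057 blocks. No untreated peak was present in the block of 638 members, or 29.7% (27.8% to 31.7%), and 455 were the only peak of their block. Blocks of at least 10 kb held 981, or 45.7% (43.6% to 47.8%), against 54.8% (54.1% to 55.4%) of the other strong peaks. Of the 9168 blocks of that length, 903 had a member. By the rule, the other strong peaks all shared a block with an untreated peak, and members need not. The distance rule thus bears on the comparison of these shares. Among blocks without an untreated peak, the most DHT sequence, 8382 bp in 2 peaks of which 1 was a member, lay at chr6:35045121-35056991. The next were at chr9:33461651-33470705, with 7991 bp in 3 peaks and 2 members, and at chr19:15289027-15301116, with 7562 bp. These blocks were chosen after their values were seen.

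Members were found on all 24 chromosomes. Their share of the strong DHT peaks ran from 5.84% on chromosome 21 to 11.9% on chromosome X. For 20 chromosomes the interval of the share included the pooled 8.66%. It lay above on chromosome X, at 11.9% (9.21% to 15.3%), and on chromosome 8, at 10.5% (8.85% to 12.4%). It lay below on chromosome 17, at 6.28% (5.06% to 7.76%), and on chromosome 14, at 6.81% (5.35% to 8.63%). By number, chromosome 1 had the most, 214, followed by chromosome 3 with 163 and chromosome 2 with 121, and Y had 4. Per 10 Mb of span, chromosome 19 was highest with 14.0 members, where the other strong peaks were also densest at 168.

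Against the corresponding share of strong untreated peaks, the DHT share was lower on 18 chromosomes and higher on 6. It was higher on chromosome 22, where 10.6% (8.31% to 13.5%) of strong DHT peaks lacked an untreated peak and 5.26% (3.40% to 8.07%) of strong untreated peaks lacked a DHT peak. On chromosome 16 the shares were 10.3% (8.33% to 12.5%) and 6.98% (5.01% to 9.64%), and on chromosome 19 they were 7.72% (6.27% to 9.47%) and 5.75% (4.32% to 7.60%). The order was turned on chromosome 4, at 7.22% (5.93% to 8.76%) and 11.4% (9.63% to 13.4%). Of these 4 chromosomes, the intervals did not overlap on chromosomes 22 and 4.

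Members were not more frequent near chromosome ends. Within 5 Mb of an end lay 224 members, or 10.4% (9.21% to 11.8%), and 12.03% (11.6% to 12.5%) of the other strong peaks, a ratio of 0.867 (0.762 to 0.986). The shares overlapped in each score class, with 10.6% against 11.4% at 150 to 200 and 10.06% against 12.3% at 200 to 300. Strong untreated-only peaks were rarer there, 119 of 1842 or 6.46% (5.43% to 7.68%), against 10.5% of the other strong untreated peaks. Seen by place, 7.59% (6.69% to 8.61%) of strong DHT peaks within 5 Mb of an end lacked an untreated peak, and 6.35% (5.33% to 7.54%) of strong untreated peaks lacked a DHT peak. Elsewhere the shares were 8.80% (8.44% to 9.19%) and 10.3% (9.89% to 10.8%). Near the ends the intervals of the DHT and untreated shares overlapped, and elsewhere they did not. The DHT shares near the ends and elsewhere also had overlapping intervals, which does not show that these shares are equal. The ratio of 0.867 above, from the same peaks, had an interval below 1. That DHT peaks cover more sequence near the ends was known from these lists, so these counts are no separate support for it.

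At the scale of 1 Mb the members were spread over 1231 windows, of which 663 held 1 and 339 held 2. The window with the most, 7 members and 24 other strong peaks, was chr19:50000001-51000000, where DHT peaks covered 13.5% and untreated peaks 12.1%. Another 11 windows held 6 members. The first of them in chromosome order were chr1:46000001-47000000, chr1:53000001-54000000, chr2:232000001-233000000 and chr3:52000001-53000000. On chromosome 1 coverage in these windows was lower after DHT, 7.67% against 8.53% and 4.42% against 4.75%, and on chromosome 3 it was higher, 13.8% against 11.1%. Windows rich in members thus did not share a direction in coverage.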

How the data were processed

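The authors deposited 1 peak list for each of the 2 H3K36me3 libraries, holding the position, a name and a score of every peak. MACS made the calls, per the peak names in the deposited files, and positions are hg19, per the file names. Scores spanned 50 to 3100. The scale of the score, the caller's settings and control, the aligner and the depth are not stated in the labels or files. No hg19 genome or annotation was used, so peaks were not assigned to genes and no sequence is printed.

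Distances count the bases between peak edges, and a distance of exactly 1000 bp counted as within. Membership was computed with NumPy 2.4.6 under Python 3.11.15, and bedtools 2.31.1 found the same 2148 peaks, matched by position. Peaks on mitochondrial DNA, 4 untreated and 3 DHT, were outside the rule. Shares carry Wilson intervals, ratios of shares a log-normal interval, medians a binomial order interval, and the covered length ratio an interval from the spread over members. Chromosome ends were set at position 1, except on 7 chromosomes with no peak in the first 1 Mb, and at the last peak. Named regions are the 10 members highest in score, the 10 widest, the 10 farthest from an untreated peak, the 5 largest runs and the 5 fullest windows. Interval functions were tested on 4000 simulated peaks, and 7 of 7 checks gave the known answers. The members, lists and rules were chosen with earlier results of these data known.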

Additional observations from a re-analysis of the deposited data

How the results depend on the processing

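With 1 library per condition, how far 2 untreated libraries would differ in these values is unknown, and the unknown depth of both lists limits every missing call. No paired analysis was possible because each condition has 1 library. The number of members, 2148, became 9733 and 552 at score limits of 100 and 200, 3512 and 761 at distance limits of 0 and 5000 bp, and 4677 when only untreated peaks scoring at least 75 counted. The median width ratio, 0.755, was below 1 in every setting run. It was 0.787 for score 200, 0.695 for 5000 bp and 0.800 for untreated peaks of at least 75. With lists joined at 1 kb it was 0.487, and without peaks under 200 bp, a setting chosen after seeing the data, 0.867. Every setting kept a rule on peak edges, so none could show how far that rule bears on width. The ratio of shares with a strong DHT peak within 10 kb, 0.773, was 0.734 and 0.890 at scores of 100 and 200, 0.902 and 0.383 at 0 and 5000 bp, 0.819 for untreated peaks of at least 75, 0.828 joined and 0.847 without narrow peaks, and its interval included 1 at score 200 (0.792 to 1.0001). The median distance to an untreated peak, 3342 bp, was 3673 and 3023.5 bp at scores of 100 and 200, 1535 and 9678 bp at 0 and 5000 bp, 4770.0 bp for untreated peaks of at least 75 and 3090.0 bp without narrow peaks. The covered length ratio at 1 to 20 kb, 0.971, was 0.942 at 0 bp and turned to 1.25 at 5000 bp and 1.45 for untreated peaks of at least 75, since both remove untreated sequence from the flanks by construction. Its interval included 1 at score 200 (0.936 to 1.011) and joined (0.966 to 1.011). The ratio of shares near chromosome ends, 0.867, ranged from 0.799 to 0.928, and its interval included 1 in 5 of 8 alternatives.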

Other observations

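Coverage around strong DHT peaks was lower at 3 to 4 kb than just beyond 5 kb. Around the members, DHT peaks covered 6.78% of the sequence at 3000 to 3500 bp from the edge, 9.31% at 4500 to 5000 bp and 10.4% at 5000 to 5500 bp. Around the other strong DHT peaks the same distances gave 6.19%, 8.79% and 10.5%. The nearest strong neighbour followed the same course: 438 of the other strong peaks had it at 3500 to 4000 bp and 802 at 5000 to 5500 bp, and for the members the numbers were 37 and 67. Untreated coverage around the members showed no such step, with 9.63%, 9.63% and 9.88%, while around the other strong peaks, which have an untreated peak beside them, it went from 7.16% to 8.96% to 10.6%. The cause of the step was not tested.

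Strong untreated-only peaks also held more very narrow peaks than the other strong peaks of their list. Of the 1842, 195 or 10.6% (9.26% to 12.1%) were under 200 bp wide, against 1.83% (1.63% to 2.04%) of the other strong untreated peaks. Among strong DHT-only peaks the share was 20.3%, against 4.58% of the other strong DHT peaks. Of the untreated-only peaks 21 were at least 2000 bp wide, against 85 of the DHT-only ones. At 2000 to 4000 bp wide lay 1.09% of the untreated-only and 3.12% of the DHT-only peaks. The other strong peaks had 6.99% there in the untreated list and 5.08% in the DHT list, so the lists themselves differed. The median width of the untreated-only peaks was 388 bp, against 396.5 bp for the DHT-only ones.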
